A study of Mus musculus with 12 samples.

Results

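The miR-30 family was followed here through the 6 mature arms mmu-miR-30a-5p, mmu-miR-30a-3p, mmu-miR-30b-5p, mmu-miR-30d-5p, mmu-miR-30e-5p and mmu-miR-30e-3p, written without the species prefix from here on. They were chosen by name, as rows of the count tables for miR-30a, miR-30b, miR-30d and miR-30e, and are 6 of the 1978 miRNAs listed. Small RNA was sequenced from 4 groups of mouse cells: paused and control embryonic stem cells (ESC) of the E14 line, and paused and control trophoblast stem cells (TSC), which give rise to placental cells. Paused cells were held with the growth kinase mTOR inhibited, and control cells carry the label WT. No inhibitor, dose or duration is named in the sources used here. The labels list 3 samples per group, but the third equals the second at all 1978 miRNAs in every group, so each group has n = 2 distinct libraries and the study has 8. Nothing in the labels says that these came from separate cultures, so p-values measure a spread that may be technical. In bulk samples such as these, fewer cells of a kind and less RNA per cell cannot be told apart.

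miRNAs are short RNAs cut from both arms of a hairpin, and the strand that is loaded into an Argonaute protein guides it to messenger RNAs that pair with the seed near its 5′ end. The miR-30 hairpins are known for their shared 5p seed, and the family has been tied to differentiation, epithelial identity and autophagy in several tissues. The opposite 3p arms carry other seeds than the 5p arms, so a shift between arms changes which messages a hairpin can address.

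Sequences of the miR-30a and miR-30e arms, from RefSeq on GRCm38.p6, are shown because these hairpins give both arms to the family. The seed, bases 2 to 8, is in capitals:
miR-30a-5p: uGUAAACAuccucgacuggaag
miR-30e-5p: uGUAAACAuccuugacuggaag
miR-30a-3p: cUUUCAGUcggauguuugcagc
miR-30e-3p: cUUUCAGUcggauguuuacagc

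Each pair is 22 bases long and differs at 1 base, which is C13U from miR-30a-5p to miR-30e-5p and G18A from miR-30a-3p to miR-30e-3p, counted from the 5′ end. The mismatches allowed in the authors' counting are not stated, so reads could be shared between these near-identical arms. In the RefSeq table the 5p seed also occurs in miR-30c-5p and miR-384-5p. The 3p seed was found in 2 of its 1679 mature names, miR-30a-3p and miR-30e-3p. The table gave 4 of the 6 members and lacks miR-30b-5p and miR-30d-5p, which are named only. Its lists of names with a seed can therefore be incomplete, also for the 3p arms of these hairpins.

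The hairpin of miR-30e lies on the minus strand of GRCm38 chromosome 4 (120772606 to 120772697), in an intron of Nfyc, which encodes a subunit of the transcription factor NF-Y. It is shown with its arms in capitals, the 5p arm at bases 17 to 38 and the 3p arm at bases 59 to 80:
Mir30e: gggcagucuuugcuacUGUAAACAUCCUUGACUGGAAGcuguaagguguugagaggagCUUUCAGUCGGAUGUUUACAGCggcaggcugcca

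The hairpin of miR-30c-1 lies in an intron of the same gene, 2983 bases away. The hairpin of miR-30a lies on the plus strand of chromosome 1 (23272269 to 23272339), outside any other gene of GENCODE M21.

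Depth was shallow. Library totals were 61749 to 73574 counts in paused ESC, 13607 to 19266 in control ESC, 23652 to 30487 in paused TSC and 18725 to 115492 in control TSC. Levels are given in CPM (counts per 1000000 of a library's total after TMM scaling, a trimmed mean of log ratios between libraries), and 1 count is worth 12.5 to 63.9 CPM depending on the library. The cell labels were checked against miRNA markers. Of 5 trophoblast markers (miR-322, miR-503 and Sfmbt2 cluster arms) 4 had counts in every group, at 5.61% to 11.0% of counts in TSC libraries and 0.109% to 1.01% in ESC libraries. The 4 pluripotency markers of the miR-302 cluster held 0.00544% to 0.00648% in paused ESC, 0.218% to 0.412% in control ESC and at most 0.00520% in TSC. Of 6 fibroblast markers, which feeder cells would carry, miR-199a-5p, miR-199a-3p and miR-199b-3p stood at 0 in all groups, and the list held at most 0.114% of counts in any library.

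The family was a minor part of these libraries, and miR-30b-5p was its most abundant arm except in control ESC, where miR-30e-5p was level with it. The 6 members together held 0.208% ± 0.0256 of counts in paused ESC and 0.226% ± 0.0335 in control ESC (SD, n = 2 each). They held 0.463% ± 0.0323 in paused TSC and 0.269% ± 0.0872 in control TSC. The paused TSC libraries, at 0.440% and 0.485%, lay above the other 6 libraries, which ran from 0.189% to 0.331%. In TMM-scaled CPM the sums were 4299 and 4476 in paused TSC and 3057 and 3732 in control TSC. ESC libraries ran from 1777 to 2173 CPM, so on that scale both TSC groups lay above all ESC libraries. How common such separation is among all miRNAs was not computed for these sums. Among the counts of the 4 arms with the 5p ending, miR-30b-5p made up 65.7% and 56.3% in paused ESC and 40.0% and 47.8% in control ESC, against 86.4% and 84.0% in paused TSC and 79.3% and 86.0% in control TSC. The share of miR-30e-5p ran the other way, at 21.0% and 22.5% in paused ESC and 40.0% and 43.5% in control ESC, against 1.52% and 8.40% in paused TSC and 8.54% and 4.65% in control TSC. miR-30b-5p thus held most of the 5p counts in every library but those of control ESC. These shares rest on 23 to 164 counts per library.

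miR-30b-5p had higher levels in TSC than in ESC. It stood at 860.4 and 696 CPM in the paused ESC libraries and 456 and 703 CPM in the control ESC libraries. In TSC it stood at 2356 and 3024 CPM in paused and 1656 and 2227 CPM in control libraries. Every TSC library lay above every ESC library, whereas paused and control libraries overlapped in ESC and were separate, with paused higher, in TSC. Separate libraries were common among all tested miRNAs, at 68.4% for pausing of ESC, 48.5% for pausing of TSC, 84.5% for control ESC against control TSC and 90.8% for paused ESC against paused TSC. By group the order was paused TSC (2690.0 ± 472), control TSC (1942 ± 404), paused ESC (778 ± 116) and control ESC (579 ± 175). Neighbours within a cell type differed by less than the sum of their SDs, and control TSC and paused ESC by more.

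**Figure D1:**
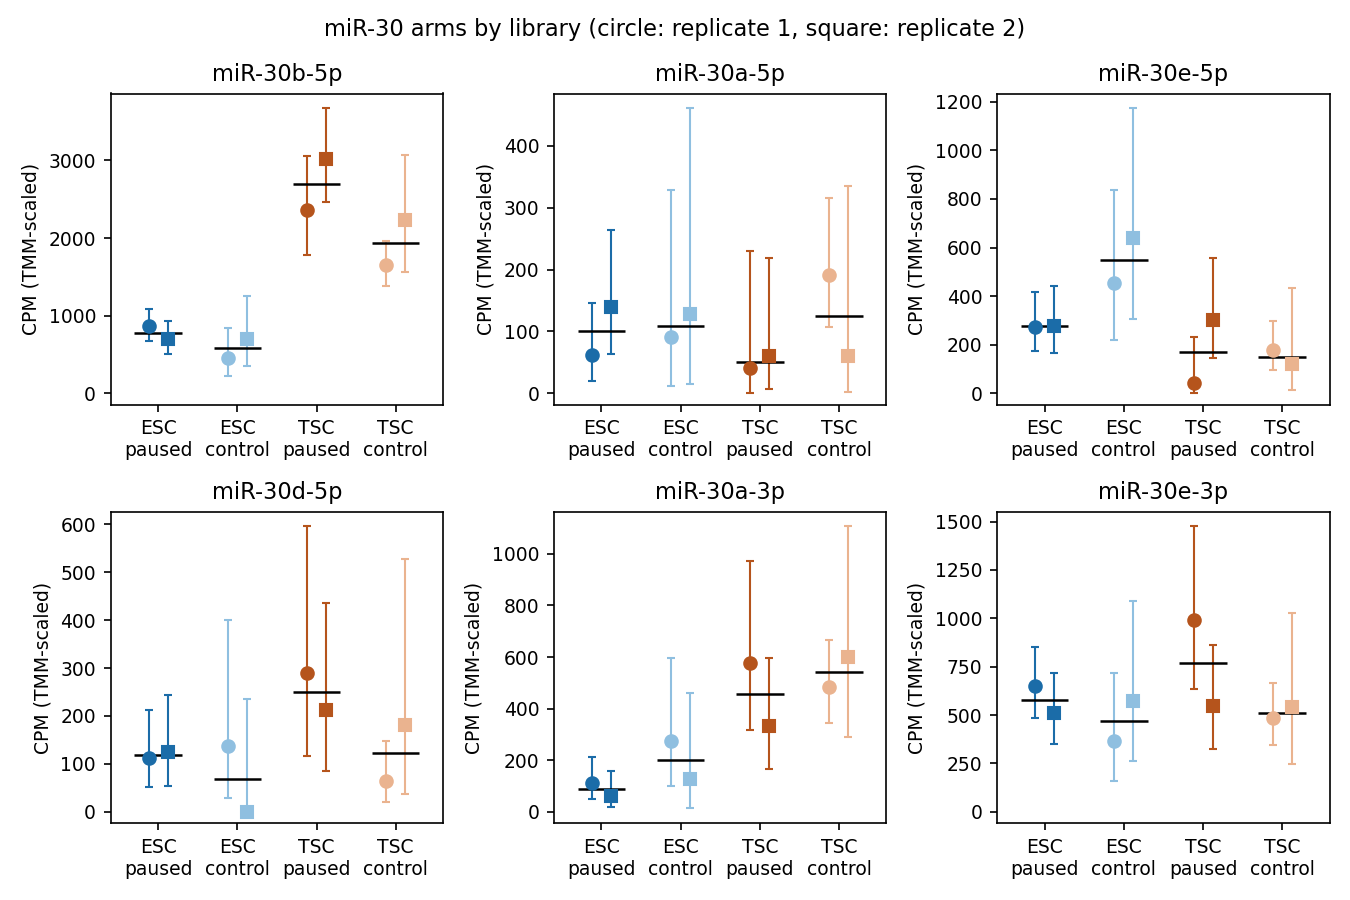
TMM-scaled CPM of the 6 miR-30 arms in each of the 8 distinct libraries, in paused ESC, control ESC, paused TSC and control TSC. Points are libraries with exact 95% Poisson intervals for counting error, and black lines are group means. miR-30b-5p is at 1656 CPM or more in each TSC library and at 860.4 CPM or less in each ESC library, while miR-30e-5p is highest in control ESC.

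miR-30e-5p was highest in control ESC. It stood at 274 and 278 CPM in paused ESC and at 456 and 639 CPM in control ESC, from 22 and 18 counts and from 10 and 10 counts. In paused TSC it stood at 41.3 and 302 CPM, from 1 and 10 counts, and in control TSC at 178 and 120.4 CPM, from 14 and 2 counts. The control ESC libraries lay above the other 6, and the paused TSC libraries differed more from each other than from control TSC. The order of the groups was control ESC (547 ± 130), paused ESC (276 ± 2.90), paused TSC (172 ± 185) and control TSC (149 ± 41.0), and the last 3 overlapped within their spread or, for paused ESC against control TSC, rested on few counts.

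miR-30e-3p, cut from the same hairpin, did not follow its partner. It stood at 648 and 510 CPM in paused ESC, 365 and 575 CPM in control ESC, 992 and 544 CPM in paused TSC and 484 and 542 CPM in control TSC. Its groups overlapped in ESC and between the cell types in either state. Paused lay above control TSC only by 544 against 542 CPM, in libraries where 1 count is worth 30.2 and 60.2 CPM. The order was paused TSC (768 ± 317), paused ESC (579 ± 97.5), control TSC (513 ± 40.8) and control ESC (470 ± 149), and no neighbours in it differed beyond their spread.

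The arm ratio of miR-30e therefore tilted to the 3p arm in every group but control ESC. The 5p arm held 29.7% and 35.3% of the counts of both arms in paused ESC, and 55.6% and 52.6% in control ESC. It held 4.00% and 35.7% in paused TSC, and 26.9% and 18.2% in control TSC. The control ESC libraries were the highest of the 8, yet their exact Clopper-Pearson 95% intervals, which cover counting error only, ran from 30.8% to 78.5% and from 28.9% to 75.6%. Intervals were 19.7% to 41.5% and 22.4% to 49.9% in paused ESC, so they overlapped those of control ESC.

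In group means the 5p share was 32.5% ± 3.93 in paused ESC against 54.1% ± 2.07 in control ESC. This difference of −21.6 percentage points was larger than either SD, but SDs over 2 libraries are narrower here than the counting intervals above. In paused TSC the 5p share was 19.9% ± 22.4 against 22.6% ± 6.18 in control TSC, a difference of −2.70 points that was within the spread. With 2 libraries against 2, the exact two-sided permutation test gave p = 0.33 for the ESC pair, the smallest p that design allows, and p = 1 for the TSC pair. With labels exchanged within state, ESC against TSC (43.3% against 21.2%) gave an exact permutation p = 0.167, and with labels exchanged within cell type, paused against control (26.2% against 38.3%) gave p = 0.222. Those designs cannot go below 0.0556, and the Benjamini-Hochberg adjusted p over the 6 comparisons of this share was 0.5 for each of these but the TSC pair (1). The TSC values turn on 1 library: without paused replicate 1, which had 1 count of the 5p arm, paused TSC was 13.2 points above control TSC.

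**Figure D2:**
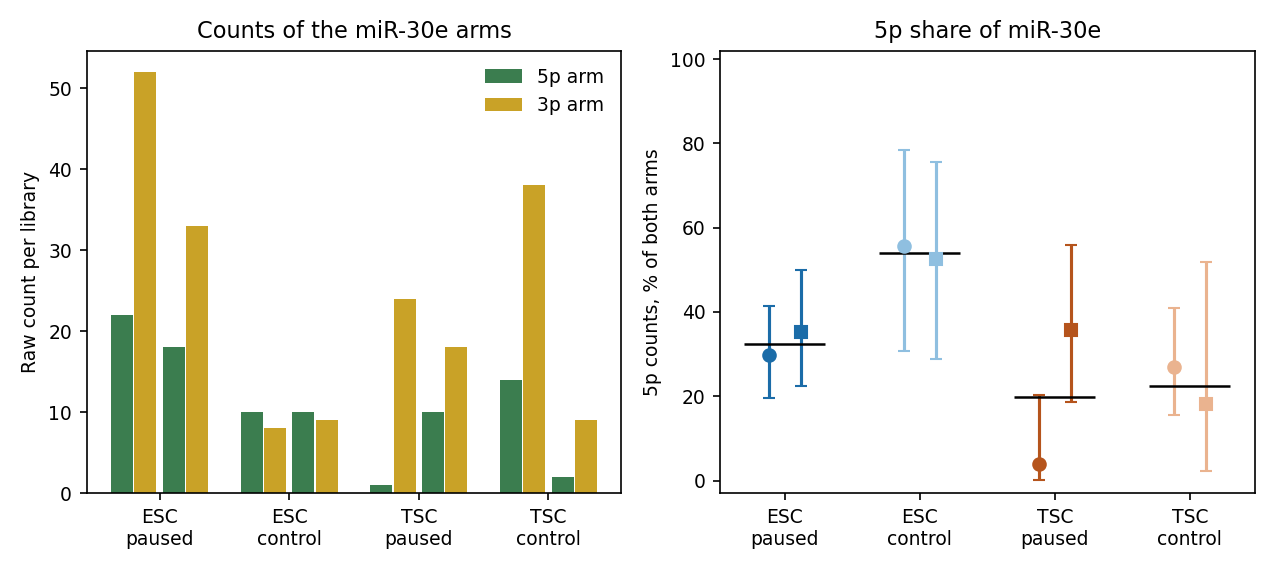
Left, raw counts of the miR-30e 5p and 3p arms in each library (replicate 1, then replicate 2, in each group). Right, the 5p counts as a percent of both arms, with circles for replicate 1, squares for replicate 2, exact 95% intervals for counting error and black lines for group means. The control ESC libraries, at 55.6% and 52.6%, are the highest, and the paused TSC libraries, at 4.00% and 35.7%, are far apart.

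Control ESC also stood apart in other respects. Of 5 blood markers 2, the arms of miR-142a, had counts in that group, at 0.612% and 0.948% of counts, against 0.0308% and 0.0530% in paused ESC, while miR-223-3p and miR-451a stood at 0 in all groups. The pluripotency and trophoblast lists given above were likewise higher in control than in paused ESC, and control ESC held the shallowest library. The part of these in the level and arm ratio of miR-30e was not tested.

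Over all libraries miR-30a gave 94 counts from its 3p and 37 from its 5p arm, with the 3p arm ahead in every TSC library, while paused ESC had 13 counts from the 3p and 14 from the 5p arm. miR-30a-3p stood at 112 and 61.9 CPM in paused ESC, 273 and 128 CPM in control ESC, 579 and 333 CPM in paused TSC and 484 and 602 CPM in control TSC. All TSC libraries lay above all ESC libraries, and paused ESC lay below control ESC on 9 and 4 counts in paused and 6 and 2 in control ESC. Among all tested miRNAs libraries were separate for 84.5% between control cells, 90.8% between paused cells and 68.4% for pausing of ESC. miR-30a-3p reached the minimum for testing in TSC libraries alone, where it is high. The order of groups was control TSC (543 ± 83.3), paused TSC (456 ± 174), control ESC (201 ± 103) and paused ESC (87.1 ± 35.6), and each pair of neighbours differed by less than the sum of its SDs.

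miR-30a-5p had 37 counts in all 8 libraries together, 1 to 15 in each, and stood at 62.3 and 139 CPM in paused ESC, 91.1 and 128 CPM in control ESC, 41.3 and 60.5 CPM in paused TSC and 191 and 60.2 CPM in control TSC. miR-30d-5p had 42 counts in all, and stood at 112 and 124 CPM in paused ESC, 137 and 0 CPM in control ESC, 289 and 212 CPM in paused TSC and 63.7 and 181 CPM in control TSC. The 0 in control ESC replicate 2 allows up to 192 CPM by the limit of 3 counts, and the exact two-sided 95% Poisson interval drawn in the plot of levels reaches 236 CPM. Paused ESC lay above paused TSC for miR-30a-5p and below it for miR-30d-5p, and paused lay above control TSC for miR-30d-5p. The other pairs compared overlapped. For miR-30a-5p the gap was 62.3 against 60.5 CPM, in libraries where 1 count is worth 12.5 and 30.2 CPM. Between the TSC groups miR-30d-5p was apart by 212 against 181 CPM, where 1 count is worth 30.2 and 60.2 CPM. Neither arm reached the minimum for testing, and with no minimum neither was called in any comparison.

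Over all libraries miR-30b stood apart from the other 3 hairpins in its arm balance, whose intervals overlapped one another. The 5p arm held 96.4% of 476 counts from miR-30b (exact 95% interval 94.3% to 97.9%), 40.4% of 104 from miR-30d (30.9% to 50.5%), 28.2% of 131 from miR-30a (20.7% to 36.8%) and 31.3% of 278 from miR-30e (25.9% to 37.1%). As pooled values these weight the deeper libraries most. For miR-30d the 5p arm held 70.8% of 24 counts in paused ESC and 60.0% of 5 in control ESC, against 46.7% of 30 in paused TSC and 17.8% of 45 in control TSC. For miR-30a it held 51.9% of 27 counts in paused ESC and 33.3% of 12 in control ESC, against 10.7% of 28 in paused TSC and 25.0% of 64 in control TSC. For each of the 4 hairpins the pooled 5p share was higher in ESC than in TSC within either state, with no test. How common this direction is among other hairpins was not computed. Single libraries of the cell types overlapped for miR-30a and miR-30b in control cells and for miR-30b and miR-30e in paused cells. In control cells miR-30b stood at 90.9% in ESC replicate 1, below TSC at 92.9% and 94.9%. The control ESC share of miR-30d rests on 5 counts of replicate 1, as replicate 2 had 0 from either arm. For miR-30e in paused cells the direction turned without paused TSC replicate 1 (−3.20 points in mean share), and for miR-30b the paused shares were close, at 99.1% in ESC and 98.1% in TSC.

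**Figure D3:**
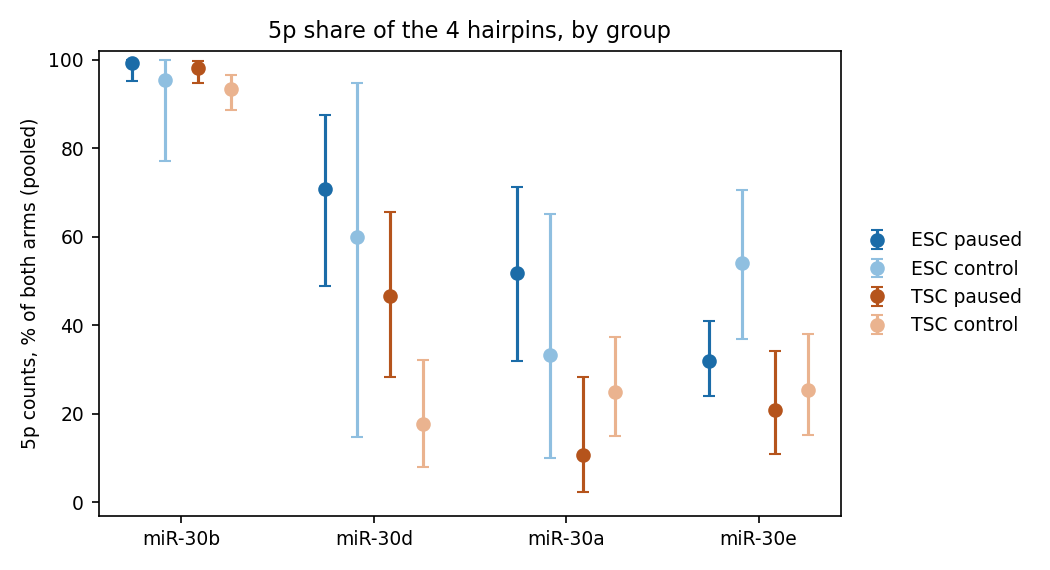
Share of the 5p arm among the counts of both arms for the 4 miR-30 hairpins, with counts pooled over the 2 libraries of paused ESC, control ESC, paused TSC and control TSC and exact 95% intervals for counting error. miR-30b is above 93% in every group, whereas the other hairpins lie between 10.7% and 70.8% with intervals that mostly overlap.

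The other rows of the family, listed by name beside the members, were sparse. miR-30d-3p had 62 counts, miR-30b-3p 17, miR-30c-2-3p 11 and miR-30c-1-3p 10 over the 8 libraries. miR-30c-5p, which is encoded by 2 hairpins, miR-30f and miR-384-5p stood at 0 in every library, so the family seed is measured here without miR-30c-5p. miR-30d-3p stood at 37.4 and 61.9 CPM in paused ESC and 91.1 and 0 CPM in control ESC, and at 331 and 242 CPM in paused TSC and 382 and 421 CPM in control TSC. Fitted without a minimum, it was lower in ESC in both states (control log2 fold change −2.46, edgeR adjusted p = 0.0401, and paused −2.14, adjusted p = 0.0140). In that fit 164 of 648 miRNAs were called between control cells and 215 of 648 between paused cells. The control ESC values of miR-30d-3p rest on 2 and 0 counts, and the 0 allows up to 236 CPM by the exact 95% Poisson interval. Both miR-30c 3p arms stood at 0 in both paused TSC libraries and had 1 to 6 counts per control TSC library. By exact 95% Poisson intervals these zeros allow up to 152 and 112 CPM, above the control TSC values of 38.2 to 76.4 CPM. Fitted without a minimum, neither was called for pausing of TSC (edgeR adjusted p = 0.821 for miR-30c-1-3p and 0.639 for miR-30c-2-3p).

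Of the 6 members 4 entered the tests, which were edgeR's quasi-likelihood test with Benjamini-Hochberg adjustment over all 206 miRNAs that had enough counts. miR-30b-5p and miR-30e-3p reached the minimum of about 369 CPM before scaling in libraries of all 4 groups. miR-30e-5p reached it in the 2 control ESC libraries alone, and miR-30a-3p in 1 library of each TSC group, so the direction of these arms between cell types is not independent of the minimum.

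Pausing moved no tested miR-30 arm past the threshold of 0.05 in either cell type. In ESC the log2 fold change, paused over control, was 0.46 ± 0.48 (SE) for miR-30b-5p (adjusted p = 0.491) and 0.35 ± 0.47 for miR-30e-3p (adjusted p = 0.601). It was −0.95 ± 0.56 for miR-30e-5p (adjusted p = 0.219) and −1.22 ± 0.80 for miR-30a-3p (adjusted p = 0.275). So 0 of 4 arms were called, and 0 had an unadjusted p under 0.05, where 27.7% of all tested miRNAs were called. DESeq2 likewise called 0. The 95% intervals, −2.05 to 0.15 for miR-30e-5p and −0.47 to 1.39 for miR-30b-5p, leave room for changes of more than 2-fold. Single libraries moved these values: without control ESC replicate 1 miR-30a-3p stood at −0.14, and without control ESC replicate 2 miR-30e-5p stood at −0.37, miR-30b-5p at 1.13 and miR-30e-3p at 1.03, none of them called. Without paused ESC replicate 1, miR-30b-5p stood at 0.26 and miR-30e-3p at 0.13, and without paused ESC replicate 2 miR-30b-5p stood at 0.82, miR-30e-3p at 0.72 and miR-30a-3p at −0.67.

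In TSC the paused over control values were 0.51 ± 0.38 for miR-30b-5p (adjusted p = 0.418), 0.58 ± 0.43 for miR-30e-3p (adjusted p = 0.421), 0.19 ± 0.72 for miR-30e-5p (adjusted p = 0.907) and −0.23 ± 0.51 for miR-30a-3p (adjusted p = 0.826). Here 0 of 4 arms were called, 0 had an unadjusted p under 0.05, and 18.9% of all tested miRNAs were called. DESeq2 called 0, but gave no adjusted p for miR-30a-3p and miR-30e-5p, so it could not call these. The median of all tested miRNAs was −0.39, which became 0.081 when libraries were scaled by total count alone. On that scale miR-30b-5p stood at 0.96 and miR-30e-3p at 1.09, each with adjusted p = 0.0803, and miR-30a-3p turned to 0.28. Without control TSC replicate 2, miR-30b-5p was called higher in paused TSC (1.18, adjusted p = 0.0226).

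The pause effects of the cell types were not shown to differ for any of these arms. The difference, ESC minus TSC, was −1.14 ± 0.92 for miR-30e-5p (adjusted p = 0.372), −0.99 ± 0.93 for miR-30a-3p (adjusted p = 0.460), −0.23 ± 0.65 for miR-30e-3p (adjusted p = 0.868) and −0.051 ± 0.63 for miR-30b-5p (adjusted p = 0.974). Thus 0 of 4 were called by edgeR, 0 had an unadjusted p under 0.05, and 26.2% of all tested miRNAs were called. DESeq2 called 0, but again gave no adjusted p for miR-30a-3p and miR-30e-5p.

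Between the lineages, miR-30b-5p was the arm called in both states. In control cells miR-30b-5p was lower in ESC than in TSC (log2 fold change −1.74 ± 0.47, adjusted p = 0.000441), and miR-30e-5p was higher in ESC (1.68 ± 0.65, adjusted p = 0.0146). miR-30a-3p stood at −1.28 ± 0.65 (adjusted p = 0.0670) and miR-30e-3p at −0.13 ± 0.51 (adjusted p = 0.823; 95% interval −1.13 to 0.87). These 2 of 4 called arms compare with 74.3% of all tested miRNAs called. The call of miR-30b-5p ended without control ESC replicate 1 (−1.28, adjusted p = 0.0906) and that of miR-30e-5p without control ESC replicate 2 (1.71, adjusted p = 0.0834), and DESeq2 called neither (adjusted p = 0.0621 and 0.0639). With no minimum on counts miR-30e-5p kept its call (2.07, adjusted p = 0.00583), and scaling moved the median of all miRNAs between −0.23 and 0.40 without changing either direction.

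In paused cells miR-30b-5p was also lower in ESC (−1.79 ± 0.38, adjusted p = 8.08e-06), and so was miR-30a-3p (−2.27 ± 0.61, adjusted p = 0.000331). miR-30e-5p stood at 0.54 ± 0.63 (adjusted p = 0.425) and miR-30e-3p at −0.36 ± 0.40 (adjusted p = 0.399; 95% interval −1.14 to 0.41). Of all tested miRNAs 76.7% were called, so 2 of 4 is no more than the background. miR-30b-5p was called in all 13 alternatives run for this comparison, DESeq2 included (−1.32, adjusted p = 0.0159). miR-30a-3p kept its call with no minimum (−1.95, adjusted p = 0.00495) but not by DESeq2 (adjusted p = 0.0991), and miR-30e-5p rested on single paused TSC libraries, at −0.12 without replicate 1 and 2.87 without replicate 2 (adjusted p = 0.0441). The median of all tested miRNAs lay between 0.014 and 0.69 over the scalings, and both called arms stayed lower in ESC under each. The comparisons in paused and control cells share no library, but they share the fit, its pooled spread, the scaling and the minimum. Their p-values are therefore not independent.

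**Figure D4:**
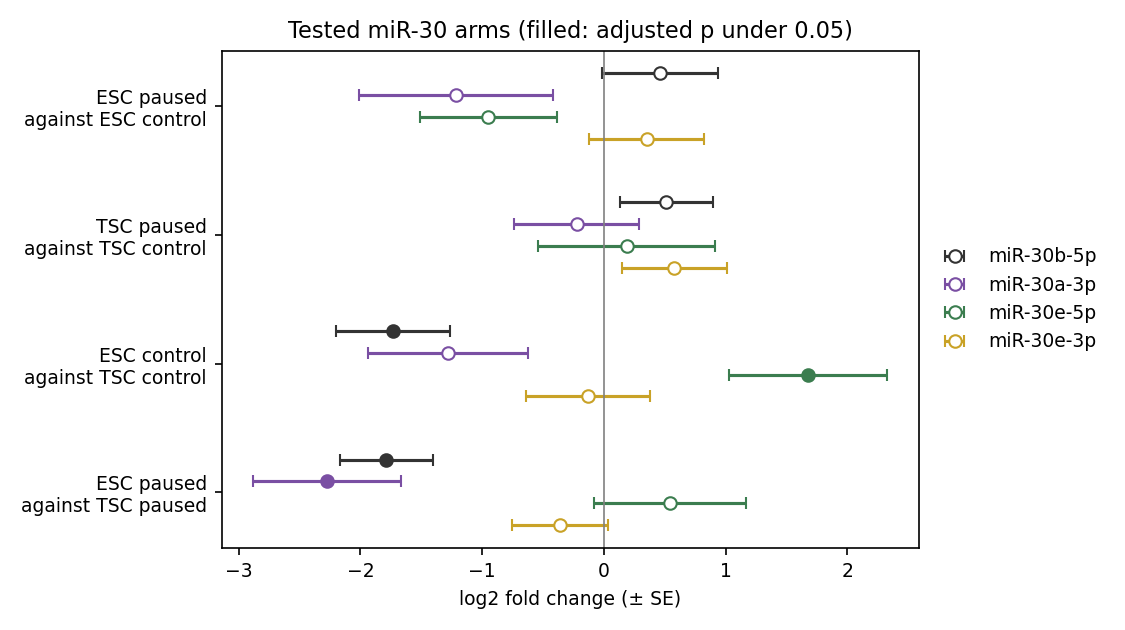
Log2 fold change with its standard error for the 4 tested miR-30 arms in 4 comparisons, the first named group over the second, from edgeR's quasi-likelihood fit of all 4 groups. Filled points have an adjusted p under 0.05 and open points do not. miR-30b-5p is negative in both comparisons of ESC against TSC, at −1.74 and −1.79, and miR-30e-5p is positive in both, at 1.68 and 0.54.

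The miRNAs most like miR-30b-5p over the 8 libraries, by Pearson's r of log2 CPM among 202 tested miRNAs outside the family, were miR-296-3p (r = 0.971), miR-328-3p (0.954) and miR-483-3p (0.953). Of these miR-296-3p averaged 415 CPM in paused ESC and 251 CPM in control ESC, against 1319 CPM in paused TSC and 1002 CPM in control TSC, and miR-483-3p stood at 0 in ESC. For miR-30e-3p no miRNA came as close, with miR-28a-3p at r = 0.636, miR-296-3p at 0.612 and miR-151-5p at 0.566. The libraries fall into 2 cell types and share their depths and scaling, so these values describe the pattern only.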

How the data were processed

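Small RNA libraries were made from 10 ng with the SMARTer smRNA-seq kit and 12 PCR cycles and sequenced as single-end reads of 75 bp, per the labels' protocols. The authors deposited raw counts per mature miRNA arm, and the submitters' processing notes name GRCm38. No aligner, counter, miRNA release or rule for reads with several matches is stated in the sources used here. The labels mention no molecular identifiers, so intervals and floors of 3 counts cover counting error only.

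Identical files of a group entered once (8 of 12 files). The tests used edgeR 4.0.16 (R 4.3.3), TMM scaling, filterByExpr defaults (minimum count 10) and 1 quasi-likelihood model with 4 group means and 4 residual degrees of freedom. edgeR gave every miRNA the trend's variance (infinite prior degrees of freedom, common biological coefficient of variation 21.3%), so p-values rest on a pooled spread. Tests were two-sided and called at an adjusted p under 0.05. CPM means have an SD over 2 libraries. Shares of counts were compared by exact permutation over libraries, and no p is given for the summed family. The fit was tested on simulated counts with a constant spread and changes set in paused ESC alone. That simulation held no difference between the lineages, so it does not bear on the lineage calls. Every member is named, and miRNAs of like pattern are the 3 with the highest r for the most abundant tested 5p and 3p arms (log2 CPM with a prior count of 2). The members, lists and tests were chosen with earlier results of these data known. Alternatives were DESeq2 1.42.0, other scalings and filters, every file as a library, only the groups compared, the replicate block and each library left out.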

Additional observations from a re-analysis of the deposited data

How the results depend on the processing

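The number of called miR-30 arms changed in some runs. It was 1 in place of 0 when every file counted as a library, identical ones included, for pausing of ESC and for the difference of pause effects (each miR-30e-5p). For pausing of TSC it ran from 0 to 1 with single libraries left out. For control ESC against control TSC it was 0 by DESeq2 and 1 when only these groups were fitted, where miR-30b-5p alone was tested, and 1 to 2 with a library left out. For the paused cells it was 1 by DESeq2, and 2 to 3 with a library left out. No other alternative moved these counts by over 1.5 times.

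Signs turned only for differences that were not called. For miR-30a-3p in paused against control TSC (−0.23) the value was 0.026 with median-of-ratios scaling, 0.28 with the total count, 0.085 with no filter and −0.19 to 0.43 with a library left out. miR-30e-5p there stood at −0.22 with the filter at 10 CPM and −1.57 to 1.38 with a library left out. For the difference of pause effects miR-30b-5p stood at 0.053 with TMM without the miR-290 cluster, 0.51 with the filter at 10 CPM and −0.60 to 0.32 with a library left out, miR-30e-3p at 0.37 with that filter and −0.85 to 0.12, and miR-30e-5p at −2.04 to 0.85. For control ESC against control TSC miR-30e-3p stood at 0.37 by DESeq2, 0.39 with median-of-ratios scaling, 0.50 with the total count, 0.38 with TMM without the cluster, 0.23 with no filter and −0.23 to 0.40 with a library left out. For the paused cells it stood at 0.086 by DESeq2, 0.048 with median-of-ratios scaling, 0.34 with TMM without the cluster, 0.28 with the filter at 10 CPM and −0.58 to 0.11, and miR-30e-5p at −0.12 to 2.87. The cause was not tested.

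The 5p share of miR-30e in paused minus control TSC was 4.05 points with every file as a library and −18.6 to 13.2 with a library left out. In paused ESC minus paused TSC it was −3.20 to 28.5 with a library left out. Over counts outside the miR-290 cluster, the family's share differed by 0.564 points (paused minus control TSC) and −0.521 (paused ESC minus paused TSC). The smaller denominator raises each share. For control ESC minus control TSC the sign turned, from −0.0433 over all counts to 0.0619. With a library left out, that difference over all counts ran from −0.105 to 0.0183.

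The replicate block called 51 miRNAs in place of 57 for ESC and 20 in place of 39 for TSC, and changed no call of a miR-30 arm. Deviations of same-numbered libraries correlated at −0.071 in ESC and −0.18 in TSC, so the numbers are not treated as pairs. With the TSC numbers crossed, an alternative chosen after seeing the data, 35 were called. For pausing of TSC the count was 16 by DESeq2, 24 with median-of-ratios scaling, 16 with no filter, 19 with only these groups and 7 to 32 with a library left out. For pausing of ESC it was 94 with every file as a library. For the difference it was 29 by DESeq2, 30 with no filter, 90 with every file and 26 to 65 with a library left out, against 54. For control ESC against control TSC it was 100 with only these groups, against 153. In the shallowest library 1 count is worth 63.9 CPM, which limits every comparison with control ESC.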
